A study of Mus musculus with 32 samples.

Results

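The genes described here encode 7 chemoattractant receptors of mouse macrophages: the chemokine receptors Cxcr4, Ccr1, Ccr2, Ccr3 and Cx3cr1, and the complement receptors C5ar1 and C3ar1. They were taken by name, each through the probe set that the array annotation assigns to that gene alone, and each of the 7 has 1 such probe set among the 19938 genes measured. The values come from 32 Affymetrix Mouse Gene 1.0 ST arrays of total RNA from 4 mouse macrophage cell lines, called WT, Y721F, 3ABY721 and 3AB, names that the labels put after the prefix M-/-. All 4 lines share that M-/- background and differ in the receptor for colony stimulating factor-1 (CSF-1), the growth factor macrophages live on: WT and 3ABY721 cells express a receptor with phosphorylated Tyr-721, and Y721F and 3AB cells are deficient in this tyrosine, per the series' design text. In a time course, WT and Y721F cells were starved of CSF-1 overnight and then given human CSF-1 for 0, 20, 60 or 180 min. In a steady-state experiment, the 4 lines were starved of CSF-1 or grown in it without interruption, at 120 ng/mL per the labels. Each of the 16 groups has 2 arrays, numbered I and II, which the design text calls biological replicates. Each receptor form is carried by 1 line, so the receptor and the line cannot be told apart.

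Chemoattractant receptors sit in the cell membrane and pass the signal of a small protein or peptide to heterotrimeric G proteins, mostly of the Gi class, which turns the cell toward the source. CXCR4 reads CXCL12 and holds cells in bone marrow and tissue niches, and the cytokine MIF can also engage it. CCR1 reads CCL3, CCL5 and related CC chemokines, CCR2 reads CCL2 and CCL7 and draws monocytes out of the blood, and CCR3 is the eotaxin receptor best known from eosinophils. CX3CR1 reads the membrane-tethered chemokine fractalkine and marks patrolling monocytes and many resident macrophages. C5AR1 and C3AR1 read C5a and C3a, the fragments released when complement is cleaved. Starvation and refeeding with CSF-1 is a standard way to study how this growth factor sets the expression of such genes.

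The cells carried the defining genes of macrophages. Taken over the 32 arrays together, all 9 measured macrophage markers of a list of 10 lay above the median gene. The median was 6.57 on the log2 scale, the scale of all signals below. Csf1r, the gene of the CSF-1 receptor, read between 12.72 and 13.41. In grown Y721F cells the means of Mertk (5.46) and Fcgr1 (6.06) lay below that median. None of the eosinophil, neutrophil, mast cell, dendritic cell or lymphocyte markers lay above that median in its mean over the arrays, Siglecf and Epx of the eosinophil list included. Of 5 fibroblast markers, 4 lay above it, with Pdgfra running from 5.49 to 9.64. Over the arrays Col1a1 (6.79), Col1a2 (6.595) and Col3a1 (6.62) had medians only slightly above 6.57. The 2 arrays of a group correlated across genes with r between 0.986 and 0.996.

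The receptors differed widely in the range of their signal. Over the 16 group means Cxcr4 spanned 5.49 log2 units, Ccr1 3.86, C5ar1 2.67, Ccr2 1.95, Cx3cr1 1.27, C3ar1 0.79 and Ccr3 0.52. By mean signal C3ar1 stood above 99.8% and C5ar1 above 98.5% of all genes. Whether differences are compressed so near the top of the signals was not tested. Cxcr4 stood above 79.2%, Ccr1 above 69.4%, Cx3cr1 above 50.4%, Ccr2 above 27% and Ccr3 above 16.8%. A probe set's signal also depends on its probes, so these percentiles place each gene among the array's signals and do not rank the receptors' transcripts against each other. Ccr2 and Ccr3 lay below the median gene, where a difference can be compressed, and whether their signal stands above background is not known from the values used here. Ccr1l1, the near copy of Ccr1, has a probe set of its own that read between 4.35 and 5.01.

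The stretches of DNA around the transcription starts of the 4 receptors with the widest ranges are shown because Cxcr4 and Ccr2 on the one hand and Ccr1 on the other differed in opposite directions with CSF-1. RefSeq (GRCm38.p6) gave a window of 250 bases before to 50 bases after the start for each of the 7 genes. They lie at chr1:128592250-128592549 on the minus strand for Cxcr4, chr9:123968643-123968942 on the minus strand for Ccr1, chr9:124101933-124102232 on the plus strand for Ccr2 and chr7:16259289-16259588 on the minus strand for C5ar1. Each is written 5′ to 3′ along its gene, with the letters of any motif found in capitals.
Cxcr4: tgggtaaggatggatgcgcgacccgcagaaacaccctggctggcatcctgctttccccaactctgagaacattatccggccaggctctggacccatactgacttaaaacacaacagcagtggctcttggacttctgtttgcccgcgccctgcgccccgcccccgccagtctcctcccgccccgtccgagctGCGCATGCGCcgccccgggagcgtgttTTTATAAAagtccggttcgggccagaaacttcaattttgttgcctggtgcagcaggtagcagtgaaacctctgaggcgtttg
Ccr1: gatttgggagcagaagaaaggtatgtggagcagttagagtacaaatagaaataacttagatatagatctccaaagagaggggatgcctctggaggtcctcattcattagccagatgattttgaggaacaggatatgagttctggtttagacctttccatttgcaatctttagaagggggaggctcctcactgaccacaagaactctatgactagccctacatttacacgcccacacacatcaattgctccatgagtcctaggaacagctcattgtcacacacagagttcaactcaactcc
Ccr2: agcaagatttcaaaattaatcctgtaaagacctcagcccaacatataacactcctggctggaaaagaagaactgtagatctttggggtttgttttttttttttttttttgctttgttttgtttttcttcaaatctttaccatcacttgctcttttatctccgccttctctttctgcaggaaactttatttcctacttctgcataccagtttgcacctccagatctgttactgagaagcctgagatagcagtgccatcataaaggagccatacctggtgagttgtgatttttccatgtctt
C5ar1: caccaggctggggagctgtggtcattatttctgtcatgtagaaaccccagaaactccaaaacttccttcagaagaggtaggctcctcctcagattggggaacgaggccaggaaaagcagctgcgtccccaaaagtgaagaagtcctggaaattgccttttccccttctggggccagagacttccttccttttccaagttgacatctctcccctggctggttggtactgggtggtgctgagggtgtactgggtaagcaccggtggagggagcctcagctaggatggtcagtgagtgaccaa
A search on both strands used the letters TGANTCA for AP-1, TGTTTAC for FOXO, GCGTGGGCG for EGR, GAGGAAG for PU.1, GCATGCGC for NRF1, TATAAA for a TATA box, TTGCNNAA for C/EBP and CACGTG for an E-box. The Cxcr4 window, with 59.3% G and C against a median of 52.7% over all windows, held the NRF1 letters on both strands in 1 overlapping run that starts 59 bases before the start, and the TATA letters 30 bases before it. NRF1 letters were present in 2.71% and TATA letters in 13.6% of 32851 windows of this length. The windows of Ccr1 (44.0% G and C), Ccr2 (38.0%) and C5ar1 (53.7%) held none of the 8 motifs. Of the other members, Ccr3 held an AP-1 match 144 bases before its start, and C3ar1 held AP-1 letters 22 bases and TATA letters 235 bases before its start, while AP-1 letters occur in 7.81% of windows. The shares of all windows with the other letters were 3.65% for FOXO, 0.612% for EGR, 13.6% for PU.1, 10.8% for C/EBP and 7.15% for the E-box. A match is a description of the letters and no evidence of binding.

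A gene was called where limma's adjusted p (Benjamini-Hochberg over 19938 genes) was under 0.05 and the fold above 1.5, and "rose" and "fell" are used in that sense. The shares of all genes given below are of genes called by this rule. Counts of members at an unadjusted p under 0.05 have no such share beside them and cannot be set against these. The first question was how the receptor genes answer CSF-1 in starved WT cells. Cxcr4 had fallen at 180 min. Ccr1 and C5ar1 measured higher and Ccr2 lower than at 0 min, differences that were called at 180 min with the replicate number as a block and not without it. The 3 times share their 0 min arrays. At 20 min 0 of 7 members were called (1 at an unadjusted p under 0.05) against 0.16% of all genes, and at 60 min 0 of 7 (3 unadjusted) against 0.632%. At 180 min 1 of 7 was called, downward, against 2.16% of all genes. In the time course, arrays with the same number deviate together across genes (r from 0.353 to 0.734 over the 12 same-line pairs), so the numbers pair the arrays, and the fit with the number as a block within each line is given where it changes a call. With that block 3 members were called at 60 min (1 up, 2 down) against 3.74% of all genes, and 4 at 180 min (2 up, 2 down) against 7.81%. The median difference over the 7 members at 180 min was 0.06, against -0.01 over all genes.

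Cxcr4 read 10.64 and 9.76 in WT arrays I and II at 0 min, 9.84 and 9.56 at 20 min, 7.92 and 8.45 at 60 min, and 8.64 and 7.50 at 180 min. Every array at 60 and 180 min lay below every array at 0 and 20 min. The difference from 0 min was -0.50 (SE 0.42, adjusted p = 1) at 20 min and -2.02 (SE 0.42, adjusted p = 0.059) at 60 min. At 180 min Cxcr4 fell by 2.13 (SE 0.42, adjusted p = 0.029), and with the block both the 60 and the 180 min differences were called (adjusted p = 0.0032 and 0.0018). In bulk RNA, fewer cells with a transcript and less of it per cell cannot be told apart. The 180 min call was lost without WT 0 min array I (-1.69, adjusted p = 0.263), array II (-2.57, 0.0522) or 180 min array II (-1.56, 0.263), and in a fit of the compared groups alone (0.124).

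Ccr1, the receptor for CCL3 and CCL5, had its lowest values at 0 min. It read 8.70 and 7.51 in WT at 0 min, 9.59 and 8.91 at 20 min, 9.64 and 9.43 at 60 min, and 10.20 and 9.84 at 180 min. Each later array lay above both 0 min arrays. The difference from 0 min was 1.15 (SE 0.45, adjusted p = 1) at 20 min, 1.43 (SE 0.45, adjusted p = 0.23) at 60 min and 1.92 (SE 0.45, adjusted p = 0.051) at 180 min. With the block the 60 and 180 min values were called (adjusted p = 0.019 and 0.0027), and the 20 min value was not (0.27).

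Ccr2, the CCL2 receptor, had 0 min arrays that lay far apart. It read 6.76 and 5.47 in WT at 0 min, 6.13 and 5.53 at 20 min, 4.96 and 5.07 at 60 min, and 5.06 and 4.73 at 180 min. All 4 arrays from 60 min on lay below those at 0 and 20 min. The differences were -1.10 (SE 0.34, adjusted p = 0.22) at 60 min and -1.22 (SE 0.34, adjusted p = 0.088) at 180 min, and both were called with the block (adjusted p = 0.029 and 0.0092). Without WT 0 min array II they were -1.75 and -1.86, which leaves the higher array I (6.76) alone at 0 min. Array II (5.47) lay nearer the later arrays, so the size of both differences rests largely on array I.

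Ccr3 and Cx3cr1 gave no call in WT in either fit. Ccr3 ran from 4.48 to 4.77 over the 8 WT arrays, with 180 min above the other times by a difference of 0.26 from 0 min (SE 0.12, adjusted p = 0.35). Cx3cr1 followed the array number: array I read 7.51, 8.04, 7.71 and 7.43 and array II 6.55, 6.70, 6.50 and 6.55 at 0, 20, 60 and 180 min. The gap between the numbers was wider than any change with time, and the largest difference from 0 min was 0.34 (SE 0.48, adjusted p = 1) at 20 min.

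C5ar1, the C5a receptor, was highest at 180 min in both WT series. It read 12.09 and 11.78 at 0 min, 12.40 and 12.06 at 20 min, 12.66 and 12.07 at 60 min, and 12.79 and 12.54 at 180 min. Both 180 min arrays lay above both 0 min arrays. The 180 min difference was 0.73 (SE 0.30, adjusted p = 0.28), and it was called with the block (adjusted p = 0.0034). C3ar1, the C3a receptor, stayed between 12.91 and 13.16 in the 8 WT arrays, and its difference from 0 min was 0.06 (SE 0.10, adjusted p = 0.92) at 180 min.

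**Figure D1:**
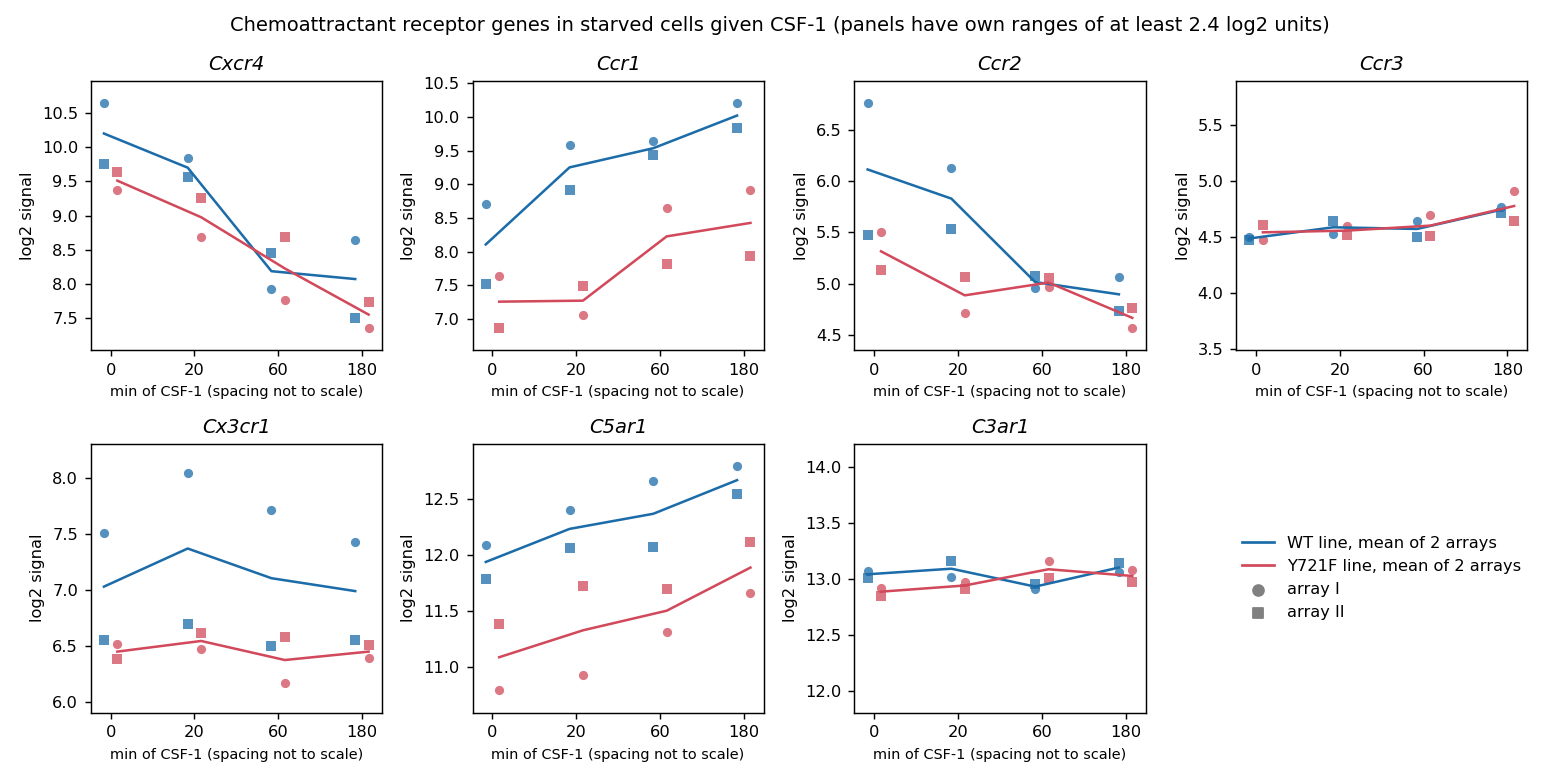
Log2 signal of the 7 receptor genes in starved WT (blue) and Y721F (red) cells against minutes of CSF-1, with the times evenly spaced and not to scale; circles are arrays I, squares arrays II, and lines join the means of 2 arrays. Cxcr4 goes from 10.20 to 8.07 in WT and from 9.51 to 7.55 in Y721F, Ccr1 and C5ar1 end above their 0 min means in both lines, and the Cx3cr1 arrays of WT separate by number.

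The second question was whether the line whose receptor lacks Tyr-721 answers in the same way. In Y721F cells limma called 0 of 7 members at 20 min (0 unadjusted) against 0.0802% of all genes, 0 at 60 min (1 unadjusted) against 0.176% and 0 at 180 min (3 unadjusted) against 0.261%. With the block 3 members were called at 180 min, Ccr1 and C5ar1 up and Cxcr4 down, against 5.39% of all genes. Cxcr4 read 9.38 and 9.64 at 0 min, 8.69 and 9.26 at 20 min, 7.76 and 8.69 at 60 min, and 7.36 and 7.74 at 180 min. The 180 min arrays lay below all the others. The 180 min difference was -1.96 (SE 0.42, adjusted p = 0.072, and 0.0054 with the block), close to the -2.13 of WT.

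Ccr1 read 7.64 and 6.87 in Y721F at 0 min, 7.05 and 7.49 at 20 min, 8.64 and 7.81 at 60 min, and 8.92 and 7.93 at 180 min. From 60 min on both arrays lay above both 0 min arrays, while the 20 min arrays lay among them. Its difference was 0.02 (SE 0.45) at 20 min, 0.97 (SE 0.45) at 60 min and 1.17 (SE 0.45, adjusted p = 0.27, and 0.03 with the block) at 180 min. C5ar1 read 10.79 and 11.38 at 0 min, 10.93 and 11.72 at 20 min, 11.31 and 11.69 at 60 min, and 11.66 and 12.11 at 180 min. Its 180 min arrays lay above both 0 min arrays, by 0.80 (SE 0.30, adjusted p = 0.26, and 0.0050 with the block). Ccr2, at 5.50 and 5.13 at 0 min and 4.57 and 4.76 at 180 min, differed by -0.65 (SE 0.34, adjusted p = 0.46), also not called with the block (0.13). Ccr3 ran from 4.48 to 4.91, Cx3cr1 from 6.17 to 6.62 and C3ar1 from 12.85 to 13.16, with no call.

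The difference between the lines' responses was tested as a contrast of its own. With limma 0 of 7 members were called at 20, 60 or 180 min, against 0% of all genes each time, and at an unadjusted p under 0.05 the counts were 0, 1 and 0. For Cxcr4 the Y721F response minus the WT response was -0.04 at 20 min, 0.73 at 60 min and 0.17 at 180 min, each with SE 0.59. For Ccr1 it was -1.13, -0.46 and -0.75, each with SE 0.64. The -1.13 at 20 min was not called (adjusted p = 1, unadjusted p = 0.103). For C5ar1 it was between -0.06 and 0.07 (SE 0.43).

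Before CSF-1 was added, limma without the block called 0 of 7 members (2 unadjusted) between Y721F and WT, against 0.727% of all genes. The means of 4 members differed by more than 1.5-fold. C5ar1 measured -0.85 (SE 0.30, adjusted p = 0.35), and its Y721F arrays (10.79 and 11.38) lay below those of WT (12.09 and 11.78). With the number as a block within each line, which takes the spread between numbers out of the error, C5ar1 alone was called (adjusted p = 0.00093) against 3.99% of all genes. For a difference between lines that spread belongs in the error, so the blocked p-values of this comparison are too small to rest a call on. Ccr1 differed by -0.85 (SE 0.45), Ccr2 by -0.80 (SE 0.34), Cxcr4 by -0.69 (SE 0.42) and Cx3cr1 by -0.58 (SE 0.48), none called in either fit (Cx3cr1 had adjusted p = 0.029 with the block and a fold under the threshold). The Y721F arrays of Cxcr4 and Cx3cr1 lay below those of WT, and those of Ccr1 and Ccr2 overlapped them.

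The steady-state experiment asked what continuous growth in CSF-1 does, against overnight starvation, in each line. Cxcr4 fell in WT and 3ABY721, Ccr2 fell in WT and Y721F, Ccr1 rose in Y721F, and Cx3cr1 fell in 3ABY721. In WT 2 of 7 members were called, both down, against 5.32% of all genes, and in Y721F 2 (1 up, 1 down) against 4.94%. In 3ABY721 2 were called, both down, against 1.41%, and in 3AB 0 (3 at an unadjusted p under 0.05) against 0.687%. The median difference over the 7 members was -0.14 in WT, -0.34 in Y721F, -0.18 in 3ABY721 and -0.13 in 3AB, and over all genes it was between -0.03 and 0.01.

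Cxcr4 read 11.26 and 10.98 in starved and 7.55 and 8.48 in grown WT cells. It fell by 3.10 (SE 0.35, adjusted p = 0.00019) and kept this call under each alternative tried. In 3ABY721 it read 10.94 and 10.73 starved and 8.82 and 7.89 grown, and it fell by 2.48 (SE 0.35, adjusted p = 0.0023, or 2.02 and 0.0526 without grown array II). In Y721F it read 7.02 and 7.68 starved and 5.89 and 6.74 grown, a difference of -1.03 (SE 0.35, adjusted p = 0.093). In 3AB it read 11.67 and 11.93 starved and 10.82 and 11.02 grown, a difference of -0.88 (SE 0.35, adjusted p = 0.34). Grown arrays lay below starved arrays in each of the 4 lines. The growth effect in Y721F minus that in WT was 2.07 (SE 0.49, adjusted p = 0.24) and in 3AB minus 3ABY721 1.60 (SE 0.49, adjusted p = 1), so a smaller effect in the lines without Tyr-721 was not called.

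Ccr1 was higher in grown than in starved cells in every line's mean. It read 9.27 and 7.94 starved and 9.47 and 9.38 grown in WT, a difference of 0.82 (SE 0.41, adjusted p = 0.29). In Y721F it read 5.84 and 6.48 starved and 7.74 and 9.05 grown, and it rose by 2.24 (SE 0.41, adjusted p = 0.0056). In 3ABY721 it read 7.78 and 7.73 starved and 9.44 and 9.39 grown, a difference of 1.66 (SE 0.41, adjusted p = 0.068). In 3AB it read 6.71 and 7.50 starved and 8.51 and 8.57 grown, a difference of 1.44 (SE 0.41, adjusted p = 0.18). Both grown arrays lay above both starved arrays in each line. The call in Y721F was lost without its grown array II (1.58, adjusted p = 0.0581) and in a fit of the compared groups alone (0.0508).

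Ccr2, like Cxcr4, was lower in grown cells. It read 5.91 and 5.72 starved and 4.57 and 4.64 grown in WT, where it fell by 1.21 (SE 0.22, adjusted p = 0.0051, or 1.11 and 0.0517 without starved array I). In Y721F it read 5.05 and 5.52 starved and 4.41 and 4.32 grown, and it fell by 0.92 (SE 0.22, adjusted p = 0.022). That call was lost without Y721F starved array II (-0.69, 0.255), grown array I (-0.96, 0.0508) or grown array II (-0.88, 0.0964). It read 5.93 and 5.17 starved and 4.55 and 4.82 grown in 3ABY721 (-0.87, SE 0.22, adjusted p = 0.068). In 3AB it read 6.34 and 6.28 starved and 5.93 and 5.66 grown (-0.52, SE 0.22, adjusted p = 0.37). Every line's grown arrays lay below its starved arrays.

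Cx3cr1 fell in 3ABY721, where it read 7.04 and 6.65 starved and 6.06 and 6.15 grown, by 0.74 (SE 0.16, adjusted p = 0.036). The call did not hold without 3ABY721 starved array I (-0.55, adjusted p = 0.339), grown array I (-0.69, 0.286) or grown array II (-0.79, 0.22), nor with both experiments in 1 fit (0.47). In WT it read 6.83 and 6.57 starved and 6.24 and 6.15 grown (-0.51, SE 0.16, adjusted p = 0.088), and it differed by -0.13 in Y721F and -0.14 in 3AB. Ccr3 ran from 4.42 to 5.09 over the 16 steady-state arrays with no call, and its largest growth effect was 0.31 in WT (SE 0.17, adjusted p = 0.34).

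The complement receptors gave no call with growth. C5ar1 differed by 0.19 in WT, 0.20 in 3ABY721 and 0.20 in 3AB (each SE 0.28). In Y721F the grown mean was the lower one, with 10.65 and 11.23 starved and 10.58 and 9.42 grown, a difference of -0.94 (SE 0.28, adjusted p = 0.061). Grown array II stood low in that group, and without grown array I the difference was -1.52. Grown array I (10.58) lay just below the lower starved array (10.65), so the size of the difference rests largely on array II. C3ar1 measured between -0.34 (Y721F) and -0.13 (3AB) in the 4 lines. Over both contrasts of growth effects, 0 of 7 members were called by limma (3 and 2 unadjusted), against 0.0903% and 0.00502% of all genes.

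**Figure D2:**
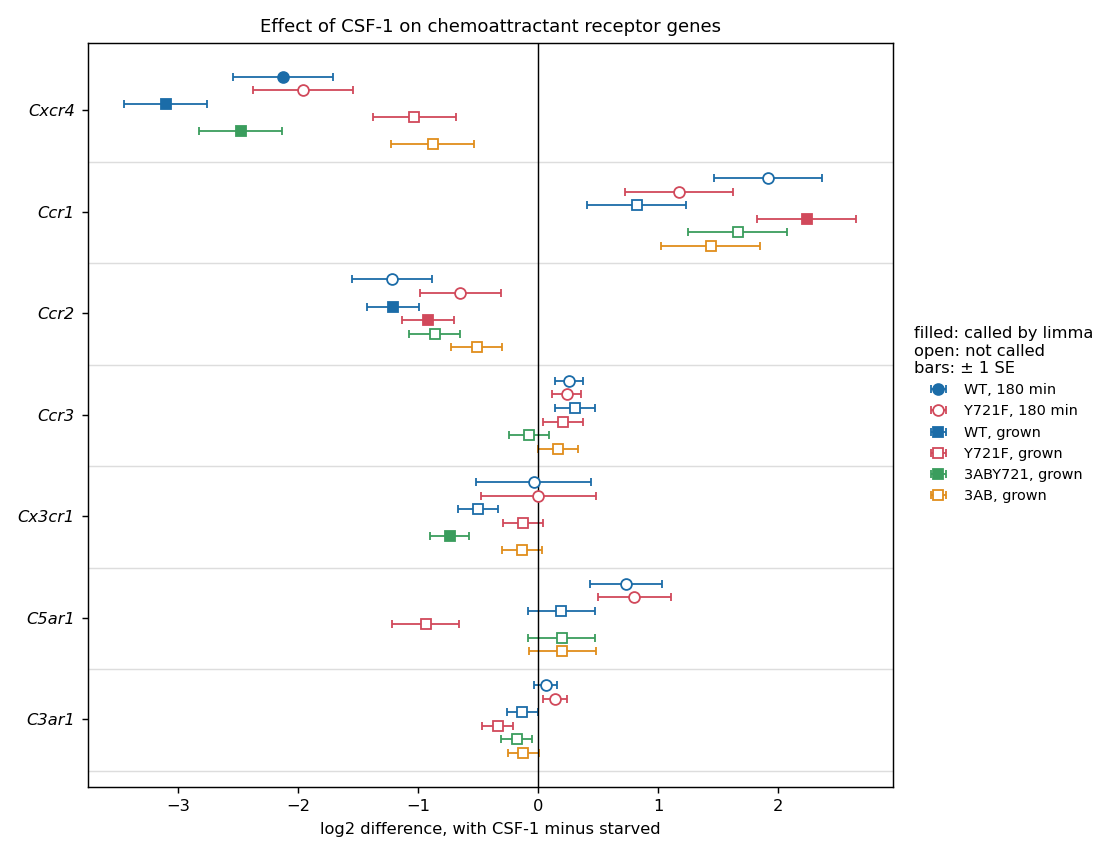
Log2 difference (cells with CSF-1 minus starved cells) for each receptor gene, at 180 min in WT and Y721F and in cells grown in CSF-1 in 4 lines; bars are 1 SE on each side, filled points are called by limma and open points are not. Cxcr4 and Ccr2 lie left of 0 and Ccr1 right of 0 in all 6 comparisons, while C5ar1 is left of 0 only in grown Y721F.

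**Figure D3:**
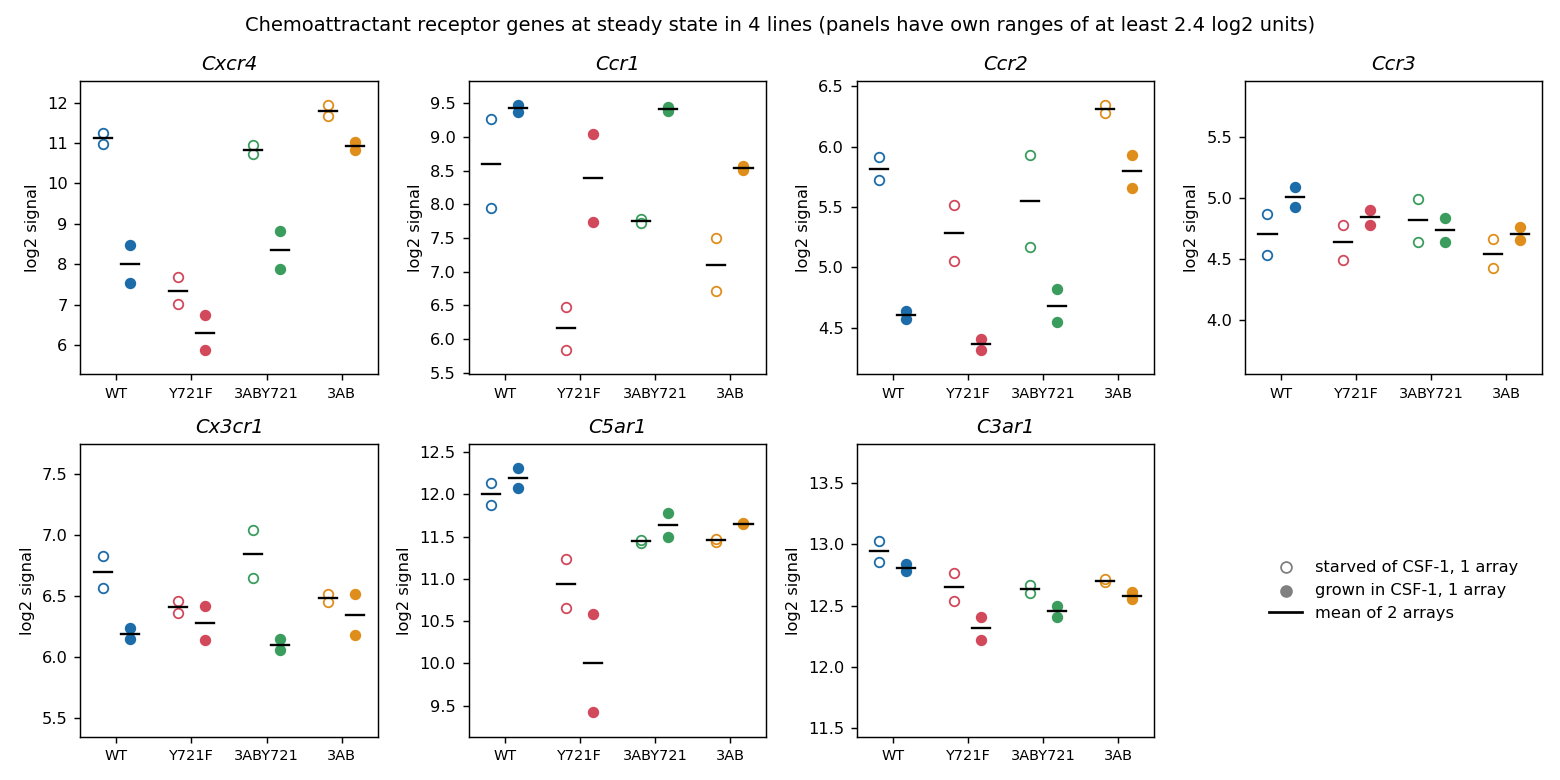
Log2 signal of the 7 receptor genes in WT, Y721F, 3ABY721 and 3AB cells, starved (open circles) or grown in CSF-1 (filled circles), 1 circle per array, with a bar at the mean of 2 arrays. Starved Cxcr4 has means of 11.12 in WT, 10.84 in 3ABY721 and 11.80 in 3AB and 7.35 in Y721F.

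The last question was how lines without Tyr-721 differ from lines with it. Cxcr4, Ccr1 and C5ar1 were lower in Y721F than in WT, whereas Cxcr4 and Ccr2 were higher in 3AB than in 3ABY721. For Y721F against WT, 3 of 7 members were called in starved cells, all down, against 11.1% of all genes, and 2 in grown cells, both down, against 7.88%. For 3AB against 3ABY721, 2 of 7 were called in grown cells, both up, against 1.18% of all genes, and 0 in starved cells (3 unadjusted) against 0.617%.

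Ordered by mean, Cxcr4 was highest in starved 3AB cells (11.80 ± 0.18, SD, n = 2), whose arrays stood apart from those of starved WT (11.12 ± 0.20). Starved WT, grown 3AB (10.92 ± 0.14) and starved 3ABY721 (10.84 ± 0.15) followed with overlapping arrays between neighbours. Across a wide gap came grown 3ABY721 (8.36 ± 0.66), grown WT (8.02 ± 0.66) and starved Y721F (7.35 ± 0.47), again overlapping between neighbours, with grown Y721F (6.32 ± 0.60) last and apart. Starved Y721F cells were lower than starved WT cells by a log2 difference of -3.77 (SE 0.35, adjusted p = 6.9e-06), and grown ones by -1.70 (SE 0.35, adjusted p = 0.0064). The first of these kept its call in every alternative, and the second lost it in a fit of the 2 groups alone (0.163). Against 3ABY721, 3AB measured 0.97 (SE 0.35, adjusted p = 0.39) starved and 2.57 (SE 0.35, adjusted p = 0.0014) grown, the latter called in every alternative. Grown 3AB cells read 10.82 and 11.02, in the range of the starved cells of WT and 3ABY721.

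For Ccr1 the order from the highest was grown WT (9.43 ± 0.06), grown 3ABY721 (9.42 ± 0.04), starved WT (8.61 ± 0.94), grown 3AB (8.54 ± 0.04), grown Y721F (8.40 ± 0.93), starved 3ABY721 (7.76 ± 0.04), starved 3AB (7.11 ± 0.56) and starved Y721F (6.16 ± 0.45). Neighbours overlapped in 4 of 7 pairs, and the lowest 3 groups stood apart from each other. Starved Y721F cells were lower than starved WT by -2.45 (SE 0.41, adjusted p = 0.0013), a call kept in every alternative. Grown cells differed by -1.03 (SE 0.41, adjusted p = 0.13), and 3AB against 3ABY721 by -0.65 starved and -0.88 grown (SE 0.41, adjusted p = 0.75 and 0.45).

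Ccr2 was higher in grown 3AB (5.93 and 5.66) than in grown 3ABY721 (4.55 and 4.82) by 1.11 (SE 0.22, adjusted p = 0.018). The call was lost when any 1 of these 4 arrays was left out (0.97 to 1.25, adjusted p from 0.0763 to 0.243) and with both experiments in 1 fit (0.0947). Starved 3AB measured 0.76 (SE 0.22, adjusted p = 0.19) above 3ABY721, and Y721F against WT gave -0.53 starved and -0.24 grown, neither called.

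C5ar1 separated Y721F from the other 3 lines. Its order was grown WT (12.20 ± 0.16), starved WT (12.01 ± 0.19), grown 3AB (11.66 ± 0.01), grown 3ABY721 (11.64 ± 0.20), starved 3AB (11.46 ± 0.02), starved 3ABY721 (11.45 ± 0.02), starved Y721F (10.94 ± 0.41) and grown Y721F (10.00 ± 0.82). Each Y721F group stood apart from its neighbours, and neighbours overlapped in 3 of 7 pairs. Against WT, Y721F was lower by -1.07 (SE 0.28, adjusted p = 0.018) starved and -2.20 (SE 0.28, adjusted p = 0.00015) grown. The starved call was lost after quantile normalization (-0.82, 0.08), without WT starved array II (-0.93, 0.117) and without Y721F starved array I (-0.78, 0.143), and the grown call in a fit of the 2 groups alone (0.0811). In 3AB against 3ABY721 C5ar1 differed by 0.01 starved and 0.02 grown (SE 0.28).

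C3ar1 was the most even of the bright receptors, from 12.22 to 13.03 over the steady-state arrays. Grown Y721F (12.22 and 12.41) lay below grown WT (12.84 and 12.78) by -0.50 (SE 0.13, adjusted p = 0.024), which is under the fold threshold. Cx3cr1 and Ccr3 gave no call between lines at steady state, with differences from -0.36 to 0.25 and from -0.28 to -0.03.

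**Figure D4:**
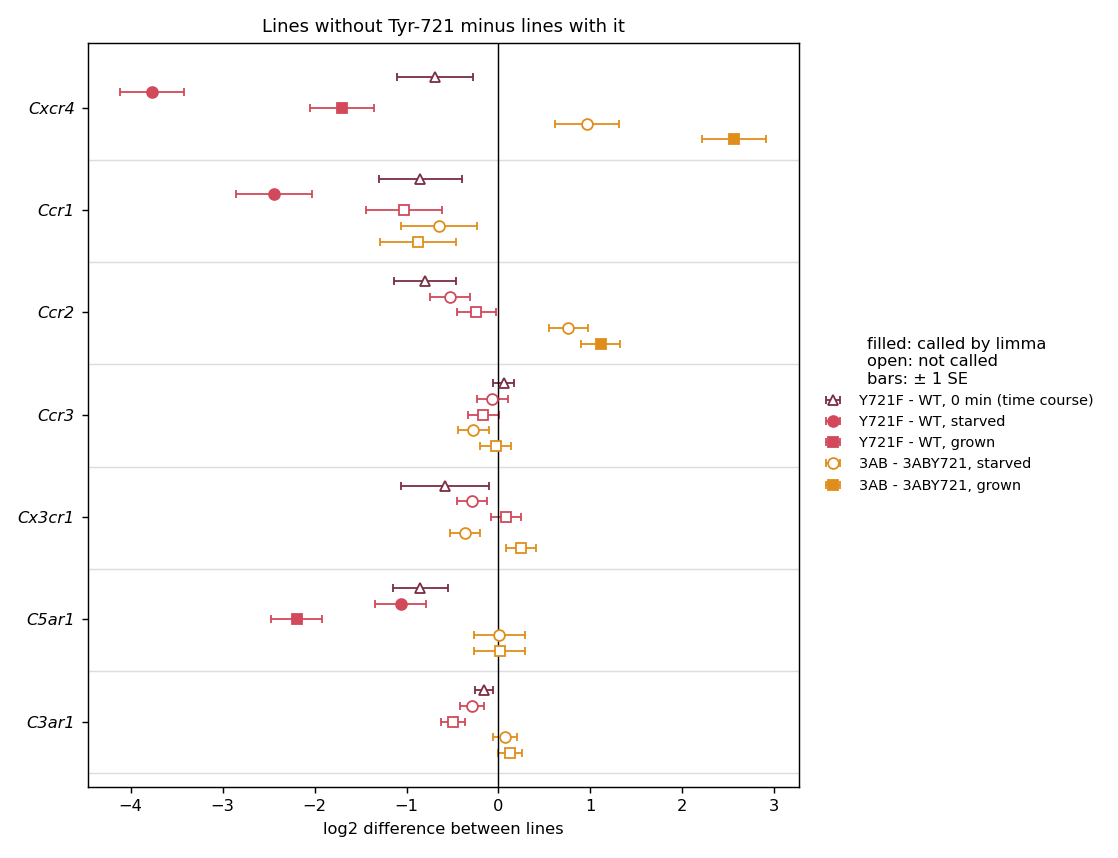
Log2 difference between lines for each receptor gene, Y721F minus WT at 0 min of the time course, starved and grown, and 3AB minus 3ABY721 starved and grown; bars are 1 SE on each side, filled points are called by limma. For Cxcr4 the Y721F points lie at -0.69, -3.77 and -1.70 and the 3AB points at 0.97 and 2.57.

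Some of the macrophage markers moved with the Y721F line as well. The mean over the 9 markers was 12.01 in starved and 11.55 in grown WT, and 10.98 and 10.22 in Y721F. It was 11.67 and 11.30 in 3ABY721, and 11.78 and 11.50 in 3AB. In Y721F against WT 4 of the 9 were called lower in grown and 4 in starved cells, against 7.88% and 11.1% of all genes called in either direction. Among them were Fcgr1, an Fc receptor gene, by -5.16 grown and -4.38 starved, and Mertk, a receptor for dying cells, by -2.78 and -1.75. Not all markers followed. In grown cells Cd68 had means of 13.02 in WT and 12.99 in Y721F, and Spi1 10.66 and 10.78. Pdgfra of the fibroblast list was higher in Y721F by 2.05 grown and 1.50 starved. In 3AB against 3ABY721, Mertk was higher by 1.41 grown and 1.44 starved and Fcgr1 by 0.90 grown. With growth, Mertk fell in each of the 4 lines, by 1.79 in WT, 2.82 in Y721F, 1.22 in 3ABY721 and 1.25 in 3AB. Fcgr1, Mertk, Pdgfra, Cd68 and Spi1 are named after their values were seen, and what part these shifts have in the receptor differences was not tested.

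Whether the line pairs differ by unequal amounts was tested with contrasts chosen after the values were seen, the 3AB minus 3ABY721 difference less the Y721F minus WT difference. A call shows unequal differences, not opposite signs. In grown cells 4 of 7 members were called, all up, against 7.99% of all genes, and in starved cells 2, both up, against 10.2%. Cxcr4 gave 4.27 (SE 0.49, adjusted p = 8e-05) grown and 4.74 (SE 0.49, adjusted p = 4.3e-05) starved, and both calls held in every alternative. Ccr2 gave 1.35 (SE 0.30, adjusted p = 0.013) grown and 1.29 (SE 0.30, adjusted p = 0.016) starved. The grown Ccr2 call was lost without 3ABY721 grown array I (1.22, 0.0664) or 3AB grown array I (1.22, 0.0689), and the starved call in the fit of both experiments (0.0508). The starved Ccr2 call was also lost without starved arrays WT I (1.20, 0.0535), Y721F I (1.06, 0.0624), 3ABY721 II (0.91, 0.0712) or 3AB II (1.32, 0.0561). C5ar1 gave 2.21 (SE 0.39, adjusted p = 0.0029) grown, kept in every alternative, and 1.08 (SE 0.39, adjusted p = 0.096) starved. C3ar1 gave 0.62 (SE 0.18, adjusted p = 0.0499) grown, a call lost in 3 alternative fits (adjusted p = 0.0503 with the block, 0.0648 after quantile normalization and 0.0843 in a fit of those groups alone) and without each of the 8 grown arrays but Y721F array II (0.53 to 0.67, adjusted p from 0.0584 to 0.157).

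The starved Y721F cells of both experiments carry the same description in the labels but differed in Cxcr4. They read 9.38 and 9.64 at 0 min of the time course and 7.02 and 7.68 in the steady-state set, while WT read 10.64 and 9.76 in the first and 11.26 and 10.98 in the second. The Y721F minus WT difference in the steady state less that in the time course is a contrast chosen after these values were seen. It called 1 of 7 members against 1.64% of all genes, and with the replicate block 2, both down, against 8.19%. Here too the block takes out spread between numbers that belongs in the error of a line difference, so its p-values are too small. Cxcr4 differed by -3.08 (SE 0.59, adjusted p = 0.012, and 0.0010 with the block). Ccr1 differed by -1.60 (SE 0.67, adjusted p = 0.19, and 0.039 with the block). The Cxcr4 call was lost without WT 0 min array II (-2.64, 0.0812) or Y721F 0 min array I (-3.21, 0.0503) and in a fit of the 4 groups alone (0.0649). The experiments were normalized by the authors by a method that is not given in the sources used here, and the same contrast was read for other lists. Of 15 ligands 0 were called without the block and 2 with it (Ccl2, -2.15, and Ccl5, -1.84). Of 23 other receptors 1 was called without it (Ackr2, 0.69) and 2 with it (Ackr2, and Ccr6, 0.70). Of these, Ccl5, Ackr2 and Ccr6 are named after their values were seen.

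The genes around the receptors were read from 3 lists. Among 15 measured ligands of the members, the CCR2 ligand Ccl2 rose in WT by 3.60 (SE 0.52, adjusted p = 0.017) at 20 min, 3.57 at 60 min and 3.88 at 180 min, and in Y721F by 3.07 at 60 min and 3.14 at 180 min. Without the block it was the 1 ligand called at each of these times, and 0 fell. With the block 4, 3 and 3 ligands rose in WT at 20, 60 and 180 min, against 0.431%, 3.74% and 7.81% of all genes called in either direction, and 0 fell. In Y721F 2 rose at each time, Ccl2 and Ccl7, against 0.246%, 0.853% and 5.39%, and 0 fell. In WT Ccl2 read 8.92 and 8.32 at 0 min and 12.68 and 12.31 at 180 min, while Ccr2 read 6.76 and 5.47 at 0 min and 5.06 and 4.73 at 180 min. Ccl7, which CCR1, CCR2 and CCR3 share, read 8.17 and 7.14 at 0 min and 12.57 and 11.47 at 180 min in WT, a difference of 4.37 (SE 1.02, adjusted p = 0.051) that was called with the block.

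With growth in CSF-1, 4 of 15 ligands rose in WT, 5 rose and 2 fell in Y721F, and 3 rose in both 3ABY721 and 3AB. Of all genes 5.32%, 4.94%, 1.41% and 0.687% were called in those lines, in either direction. Ccl2 rose in each of the 4 lines (3.02 in WT, 3.50 in Y721F, 3.06 in 3ABY721 and 2.45 in 3AB), and so did Ccl7 (3.51, 1.83, 3.94 and 3.06) and Mif, a ligand of CXCR4 (0.74, 1.08, 0.74 and 0.61). In Y721F against WT 5 ligands were lower grown (Ccl12 by -4.84, Ccl7 by -3.73, Ccl6 by -2.35, Ccl2 by -2.17 and Ccl4 by -1.58). Starved, 5 were lower and Ccl24, an eotaxin, was higher by 1.14. These counts stand against 7.88% of all genes called grown and 11.1% starved. Between 3AB and 3ABY721 no ligand was called grown, and Cx3cl1, the ligand of CX3CR1, was lower by -0.92 starved, against 1.18% and 0.617% of all genes. Mif, Ccl4, Ccl24 and Cx3cl1 are named here after their values were seen.

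Among 23 other chemoattractant receptors, 0 were called in the WT or Y721F time course without the block. With it 1 rose in WT at each time, 2 fell at 60 min and 2 at 180 min. The shares of all genes called in WT with the block were 0.431% at 20 min, 3.74% at 60 min and 7.81% at 180 min. In Y721F 1 rose and 1 fell at 180 min, against 5.39% of all genes. Ccrl2, a receptor that binds chemerin without signalling, and Ptafr, the receptor for platelet-activating factor, fell with growth in WT by 1.47 and 1.46. By limma Ccrl2 had SE 0.41 and adjusted p = 0.048, and Ptafr SE 0.34 and adjusted p = 0.021. The arrays of a group lay far apart. Ccrl2 read 8.44 and 9.81 starved and 7.20 and 8.12 grown, and Ptafr 10.18 and 10.92 starved and 8.35 and 9.83 grown. Gpr183, the receptor for oxysterols, was higher in Y721F than in WT by 2.97 (SE 0.38, adjusted p = 0.0040) at 0 min, 2.17 starved and 2.52 grown. Its WT arrays read 5.44 and 6.82 at 0 min and its Y721F arrays 8.89 and 9.30.

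Among 26 genes of receptor signalling and desensitisation, Rgs2, which speeds the shut-off of G proteins, fell in WT by 1.48 (SE 0.24, adjusted p = 0.017) at 60 min, 1.06 at 180 min and 1.04 with growth. Rgs1, of the same family, rose with growth by 2.65 (SE 0.50, adjusted p = 0.0065) in Y721F and 2.50 in 3AB. Its difference at 20 min in WT was 2.92 (SE 0.51, adjusted p = 0.063), called with the block. With the block 1 of the 26 rose at each time in both lines, Rgs1. At 20, 60 and 180 min 0, 1 and 4 fell in WT, against 0.431%, 3.74% and 7.81% of all genes called in either direction. In Y721F 0, 1 and 5 fell at those times, against 0.246%, 0.853% and 5.39%. Prex1, a Rac exchange factor driven by G protein subunits, fell with growth in WT (0.99), Y721F (1.07) and 3ABY721 (0.77). Of the 26, 4 were lower in Y721F than in WT grown and 7 starved, with none higher, against 7.88% and 11.1% of all genes called in either direction, among them Pik3cg, the PI 3-kinase that G protein subunits switch on (-1.20 grown, SE 0.14, and -1.32 starved).

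The genes with patterns most like each member were those with the highest Pearson r over the 16 group means, among 6227 genes whose group means span at least 1 log2 unit. These r are descriptions, and the groups share lines and experiments. For Cxcr4 they were Slamf7 (0.958), Ly9 (0.952) and Lifr (0.926), and for Ccr1 Sh2b2 (0.949), Zbtb32 (0.948) and Endod1 (0.942). For Ccr2 they were Ticam2 (0.916), Hfe (0.906) and Gpr34 (0.906), for Cx3cr1 Fut7 (0.922), Galnt9 (0.907) and Pdk2 (0.899), and for C5ar1 Slc7a2 (0.926), Mamld1 (0.905) and Sh3bp2 (0.898). Within the time course and within the steady state the r of these 15 genes stayed between 0.762 and 0.986. The highest Cx3cr1 means, 6.99 to 7.37, were those of the WT time course, and the next was 6.845 in starved 3ABY721. In that time course arrays I read above arrays II at every time. The span of Cx3cr1 and its r therefore rest largely on those arrays I. Ccr3 and C3ar1 span less than 1 unit and were not compared.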

How the data were processed

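Total RNA of 4 macrophage lines was measured on 32 Affymetrix arrays in 16 groups of 2. The authors deposited log2 signals for 35556 probe sets. That they are log2 follows from the values themselves, and array medians between 5.97 and 6.22 show that the arrays had been normalized. How the signals were summarized and normalized, and on which build, is not stated in the labels or headers. The array annotation names 1 gene for 21789 probe sets and several for 1621, and 12146 have no entry. For the 999 genes with several probe sets the brightest one on average was kept, which left 19938 genes.

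Each experiment's 8 groups entered a single fit with limma 3.58.1 in R 4.3.3 (lmFit and eBayes, 8 residual degrees of freedom, prior 3.48 in the time course and 6.33 at steady state). The SE is that of the fit, and 2 arrays per group limit the precision. Of the comparisons, 20 follow from the design and 3 were added after the values were seen. The 3 added ones are both differences of line pairs and the starved line difference between experiments, the latter from 1 fit of all 32 arrays. The members, gene lists and tests were chosen with earlier results of these data known. Nothing beyond the term biological replicates says whether arrays I and II are separate cultures, so p-values measure the spread between these arrays.

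Same-numbered arrays of a line in the time course correlated in their deviations from the group means at 0.487 to 0.734 in WT and 0.353 to 0.648 in Y721F (6 pairs each), which is where the pairing comes from. Named genes are the 7 members, up to 4 called genes of each other list with the largest change, and for members spanning at least 1 log2 unit the 3 most alike genes. The fit was run on simulated arrays drawn independently of each other. They lack the shared deviation of same-numbered arrays, so that run does not show how the fit behaves with paired arrays. The alternatives were the replicate block, each array left out, quantile normalization, dim genes left out (genes not above the median of gene means, which removes Ccr2 and Ccr3), both experiments in 1 fit, only the groups compared, the mean of all probe sets, a prior that follows the signal, and the authors' cutoff, a fold of 1.5 with an unadjusted p under 0.05. Promoter windows come from a RefSeq table (GRCm38.p6).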

Additional observations from a re-analysis of the deposited data

Results flagged for a closer look

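The difference between the line pairs (3AB minus 3ABY721, less Y721F minus WT), a contrast chosen after the values were seen, differed from 0 for 4 receptor genes in grown cells. It was 4.27 for Cxcr4, 2.21 for C5ar1, 1.35 for Ccr2 and 0.62 for C3ar1, against 7.99% of all genes called. The C3ar1 value was close to the threshold (limma, adjusted p = 0.0499) and lost its call in several alternatives. In starved cells the difference was 4.74 for Cxcr4 and 1.29 for Ccr2, against 10.2% of all genes called. Both Ccr2 calls were lost in some alternatives. The starved Y721F minus WT difference of Cxcr4 at steady state, less that at 0 min of the time course, was -3.08, against 1.64% of all genes called. That contrast too was chosen after the values were seen, and its Cxcr4 call was lost in some alternatives.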

How the results depend on the processing

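Of 21 called member differences, the 3 added comparisons included, and 41 above 1.5-fold that were not called, 0 changed sign in any alternative, while smaller differences did (Cx3cr1 in WT at 20 min, 0.34, and -0.33 without array I of that time). Of the 21, 7 were called under every alternative and 9 without each single array, and of 254 values under alternatives 207 kept the call and 47 lost it. Of 492 values of the 41, 45 gained a call. Calls of members are summed over the comparisons of each set, so a member called at several times or in several lines counts each time. With the replicate block, for example, the WT count takes in 3 members at 60 min and 4 at 180 min. Of all genes 3.74% and 7.81% were called at those times with the block. Shares of all genes were taken only for the main fit and for some comparisons with the block. The counts under the other alternatives have no such share, so they show how calls move and nothing particular to the receptors. In the WT response (1 called) the count was 7 with the replicate block, 2 after quantile normalization, 3 with dim genes left out, 4 with both experiments in 1 fit, 0 with only the groups compared, 8 at the authors' cutoff and 0 to 3 without single arrays. In the Y721F response (0 called) it was 3 with the replicate block, 1 with both experiments in 1 fit, 1 with only the groups compared, 4 at the authors' cutoff and 0 without each array. At 0 min (0 called) it was 1 with the replicate block, 2 at the authors' cutoff and 0 to 1 without single arrays. For the differences of responses it stayed 0 throughout, and for those of growth effects it was 5 at the authors' cutoff, 0 to 2 without single arrays and otherwise 0. For grown against starved cells (6 called) it was 12 at the authors' cutoff and 4 to 7 without single arrays. For Y721F against WT at steady state (5 called) it was 3 with only the groups compared and 4 to 7 without single arrays. For 3AB against 3ABY721 (2 called) it was 1 with dim genes left out, where Ccr2 is not tested, 1 with both experiments in 1 fit, 4 with only the groups compared, 4 at the authors' cutoff and 1 to 3 without single arrays. Apart from the dim genes, the cause of these moves was not tested. At steady state the numbers share only a label (correlations of 0.0423 to 0.28, 1 pair a line), and the block gave 9 calls with growth, 6 for Y721F against WT and 2 for 3AB against 3ABY721. Quantile normalization moved a member's difference by at most 0.25, and the median of all genes by under 0.1.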
